A study of Mus musculus with 6 samples.

Results

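Collagen chain genes are the mouse genes whose symbols have the form Col, a type number, a and a chain number. All such symbols in the array annotation were taken, rows that named any other gene were set aside, and the row with the highest mean signal was kept for each gene. This gave 43 genes among the 30738 genes tested, namely 11 fibrillar, 6 basement membrane, 9 FACIT (fibril-associated with interrupted triple helices), 4 transmembrane and 13 other chains. Col7a1, the chain of the anchoring fibrils under the epidermis, shared its row with a microRNA gene and is described apart.

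The cells were labelled hair follicle stem cells (HFSCs) and came from dorsal skin of female mice of the strain B6;129S4-Dab2tm1Cpr/J at postnatal day (PD) 35. WT mice were K14 Cre- Dab2fl/fl and Dab2-cKO mice K14 Cre+ Dab2fl/fl, where a tamoxifen-inducible Cre is driven by the promoter of keratin 14, a keratin of basal skin epithelium. Both groups carried the floxed alleles and both received tamoxifen on 5 days at 75 mg/kg, so Cre itself was present in Dab2-cKO only. The epidermal side was separated with trypsin, cells were sorted by CD34 and α6-integrin, and 1 ng of RNA was hybridised to an Affymetrix whole-transcriptome array, with 3 arrays in each group described as biological replicates.

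Each collagen chain joins with 2 others in a triple helix. Fibrillar collagens give the dermis its tensile strength and in skin are made mainly by fibroblasts, FACIT collagens lie on fibril surfaces, and basement membrane collagens form the sheet on which epithelial cells rest. Transmembrane collagens are anchored in the cell membrane, and collagen XVII is a component of the hemidesmosomes of basal keratinocytes that in mice is known for keeping HFSCs in place.

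Signals were log2 values. A background level of 7.26 was set from 1531 receptor genes of the olfactory and vomeronasal families, known mainly from sensory epithelia, at the 95th percentile of their means over all 6 arrays. The receptor genes themselves averaged 5.753, 5.592 and 5.655 on the WT arrays and 4.863, 4.887 and 4.663 on those labelled Dab2-cKO. The same level was used for both groups. A fold is printed as "at least" where a single group lay above this level and was then taken against the level, and none is printed where neither group did. Signals of different genes come from different probes and were not set against each other. Errors of means are SDs over 3 arrays, errors of differences are standard errors (SE), and adjusted p-values are those of limma over all 30738 genes with a threshold of 0.05.

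The targeted gene went against the labels. Dab2 was 6.61, 6.49 and 6.46 on the WT arrays and 8.86, 8.76 and 8.94 on those labelled Dab2-cKO, a difference of 2.34 ± 0.08 (adjusted p = 1.35e-05). The sources used here do not say whether its probes lie in the deleted part, and groups are named below as labelled. The study describes WT follicles at PD35 in early anagen, the growth phase, and Dab2-cKO follicles in telogen, the resting phase, so that genotype and phase cannot be told apart. Of 11 basal epithelial markers 6 were above background in both groups, among them Krt14 at 15.64 ± 0.13 and 16.60 ± 0.24. Of 13 fibroblast markers 5 were above it in both groups, among them Dcn at 15.61 ± 0.23 and 17.26 ± 0.07. Of 9 endothelial markers 0 were above it in both groups and 7 in arrays labelled Dab2-cKO alone. Also above it in both groups were 6 of 8 adipocyte and muscle markers and 5 of 7 melanocyte markers. The same held for 3 of 10 pericyte and smooth muscle markers and 2 of 9 leukocyte markers. Cd34, which encodes a sorting antigen, was above it on every array and differed by 2.45 ± 0.17 (adjusted p = 0.000142), higher in the group labelled Dab2-cKO. In these bulk arrays more cells of a type and more RNA per cell cannot be told apart.

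Promoters of collagen genes that differed strongly are shown first, to give the sequence from which their transcripts start. They were taken by symbol from RefSeq (assembly GRCm38.p6), and 34 of the 43 genes matched. Each line holds the 250 bases before the annotated start, 5′ to 3′ on the gene's strand, for fibrillar chains from the alpha 2 chain of collagen I and from collagen III and for the transmembrane chain of collagen XVII. Capitals mark matches to the CCAAT motif, to the TATA box spelled TATAAA and to the GC box spelled GGGCGG, on either strand.
Col1a2, chr6:4505368-4505617, plus strand: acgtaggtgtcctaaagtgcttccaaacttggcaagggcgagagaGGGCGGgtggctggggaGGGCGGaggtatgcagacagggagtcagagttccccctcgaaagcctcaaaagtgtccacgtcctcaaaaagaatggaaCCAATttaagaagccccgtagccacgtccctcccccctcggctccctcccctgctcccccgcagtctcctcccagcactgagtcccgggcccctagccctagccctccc
Col3a1, chr1:45311288-45311537, plus strand: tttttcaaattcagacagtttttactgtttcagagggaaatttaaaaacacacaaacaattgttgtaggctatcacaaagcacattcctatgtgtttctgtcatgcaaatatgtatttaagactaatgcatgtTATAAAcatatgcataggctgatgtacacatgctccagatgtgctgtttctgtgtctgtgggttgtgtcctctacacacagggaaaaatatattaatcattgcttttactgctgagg
Col17a1, chr19:47692043-47692292, minus strand: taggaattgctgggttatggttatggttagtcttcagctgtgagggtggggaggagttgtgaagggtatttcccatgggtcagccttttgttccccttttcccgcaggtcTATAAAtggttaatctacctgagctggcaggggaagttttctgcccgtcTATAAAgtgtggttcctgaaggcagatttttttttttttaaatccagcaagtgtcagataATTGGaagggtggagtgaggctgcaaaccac

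The window of Col1a2 held 1 CCAAT, with its first base 109 bases before the start, and GGGCGG at 205 and 188. The window of Col3a1 held TATAAA at 117. That of Col17a1 held TATAAA at 140 and 91, and CCAAT on the opposite strand at 31. Over the 32851 promoters of the RefSeq table, 33.8% held CCAAT in the same window, 12.4% TATAAA and 32.7% GGGCGG. Of the 34 collagen genes 12 held CCAAT, 5 TATAAA and 20 GGGCGG, and TGANTCA (an AP-1 motif) was in 1 of them against 6.75% of all promoters. A collagen gene was counted if any of its promoters matched, whereas the shares of all are counted by promoter. The bases were 62% G or C in Col1a2, 35.2% in Col3a1 and 46% in Col17a1, where the median promoter had 52.4%. A match describes letters in a window and is no measure of binding.

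Collagen genes were more often higher than lower in the arrays labelled Dab2-cKO. Of the 43 genes, 16 were higher, 1 was lower and 26 did not pass the threshold, whereas among all genes tested 18.2% were higher and 32.4% lower, or 50.6% past the threshold in either direction. The median difference was 0.11 over the collagen genes and -0.14 over all genes. The groups did not overlap for 25 of the 43 genes, with the arrays labelled Dab2-cKO above the WT arrays for 20 of them (22.2% of all genes) and below for 5 (41.3%). Most collagen signals were low, and 33 of the 43 genes lay below background in both groups. Among these 33, 7 were higher and 1 lower, against 11.8% and 31.4% of all such genes. The other 10 lay above background in at least 1 group, 5 of them in both groups and 5 in arrays labelled Dab2-cKO alone. Of these 10, 9 were higher and 0 lower, where the shares of all such genes were 34.2% and 34.6%. The 5 that were above background in a single group came in through the group where they are high, so nothing is read from that count.

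The counts moved with the scaling of the arrays, because the median of all genes itself moved from -0.14 to 0.18 with arrays centred on their medians, to 0.11 after quantile normalization, to 0.73 centred on the receptor genes and to -0.50 centred on the positive control rows. Under all 5 scalings 11 collagen genes (25.6%) were past the threshold and higher, against 9.33% of all genes, and 0 were past it and lower, against 7.02%. The 11 were Col1a1, Col1a2, Col3a1, Col5a1, Col5a2, Col14a1, Col17a1, Col6a1, Col6a2, Col6a3 and Col15a1. The median of the collagen genes lay above that of all genes by 0.24 on the deposited scale and by 0.30 after quantile normalization. Centring shifts all genes of an array alike and could not change this gap, so the centred scalings are no check of it.

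**Figure D1:**
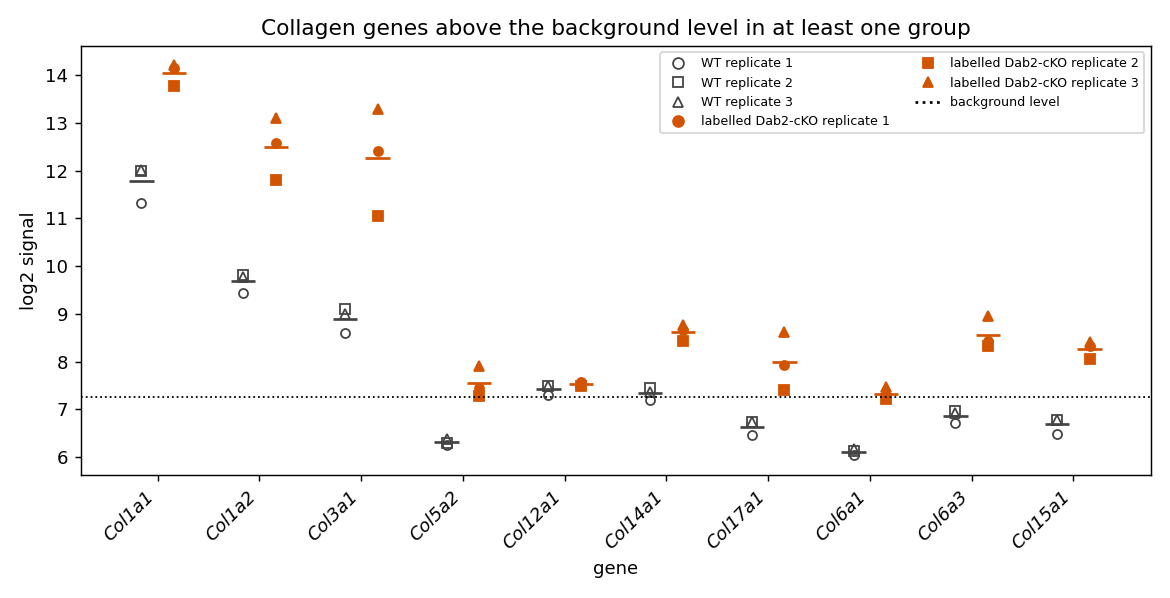
Log2 signals (vertical axis) of the 10 collagen genes (horizontal axis) above the background level of 7.26 in at least 1 group. Points are single arrays, short lines are group means of 3 arrays and the dotted line is the background level. For 9 of the genes the 3 arrays labelled Dab2-cKO sit above the 3 WT arrays, and for Col12a1 the groups overlap.

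The fibrillar chains of collagens I and III had the largest differences of any collagen gene. Col1a1, the alpha 1 chain of collagen I, was 11.33, 11.99 and 12.02 on the WT arrays and 14.16, 13.77 and 14.21 on those labelled Dab2-cKO. The groups were apart by more than the range within either, and the difference was 2.27 ± 0.22, or 4.81-fold (adjusted p = 0.000447). Col1a2, the chain that pairs with it, was 9.43, 9.82 and 9.77 in WT and 12.58, 11.80 and 13.10 in the other group. Its difference was 2.82 ± 0.32, or 7.05-fold (adjusted p = 0.000789).

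Col3a1, whose product forms thin fibrils together with collagen I, was 8.59, 9.11 and 8.99 in WT and 12.42, 11.05 and 13.30 in arrays labelled Dab2-cKO. It had the largest difference of the 43 genes at 3.36 ± 0.54, or 10.3-fold (adjusted p = 0.00303), and also the widest spread, with an SD of 1.13 in arrays labelled Dab2-cKO and 0.27 in WT. The 2 largest collagen SEs were those of Col3a1 and Col1a2. Leaving out each array in turn gave differences from 2.84 to 3.96 for Col3a1 and from 2.51 to 3.16 for Col1a2.

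Collagen V starts and limits the assembly of collagen I fibrils. Its gene Col5a2 was 6.25, 6.30 and 6.38 in WT and 7.44, 7.28 and 7.91 in arrays labelled Dab2-cKO, at least 1.21-fold higher (difference 1.23 ± 0.17, adjusted p = 0.00148). Col5a1 was below background on every array, at 5.66, 5.69 and 5.72 against 6.37, 6.34 and 6.67 (difference 0.77 ± 0.11, adjusted p = 0.00162). Col5a3, also below background, differed by 0.39 ± 0.10 (adjusted p = 0.0205), which was lost without WT replicate 2 (adjusted p = 0.0645). All 3 chains of collagen V were thus higher on the deposited scale.

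Col11a1 was the single collagen gene that was lower. It encodes a chain of the thin fibrils of cartilage and was 5.94, 5.91 and 5.94 in WT and 5.48, 5.65 and 5.66 in arrays labelled Dab2-cKO, all below background (difference -0.34 ± 0.08, adjusted p = 0.0132). Centred on the receptor genes it differed by 0.53, so its direction was not settled. The fibrillar chains that did not pass were Col2a1, the main cartilage collagen, at 0.21 ± 0.09, and Col11a2, Col24a1 and Col27a1, whose differences lay between -0.05 and 0.03. In all, 6 of 11 fibrillar genes were higher and 1 was lower (18.2% and 32.4% of all genes), with a median difference of 0.39.

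**Figure D2:**
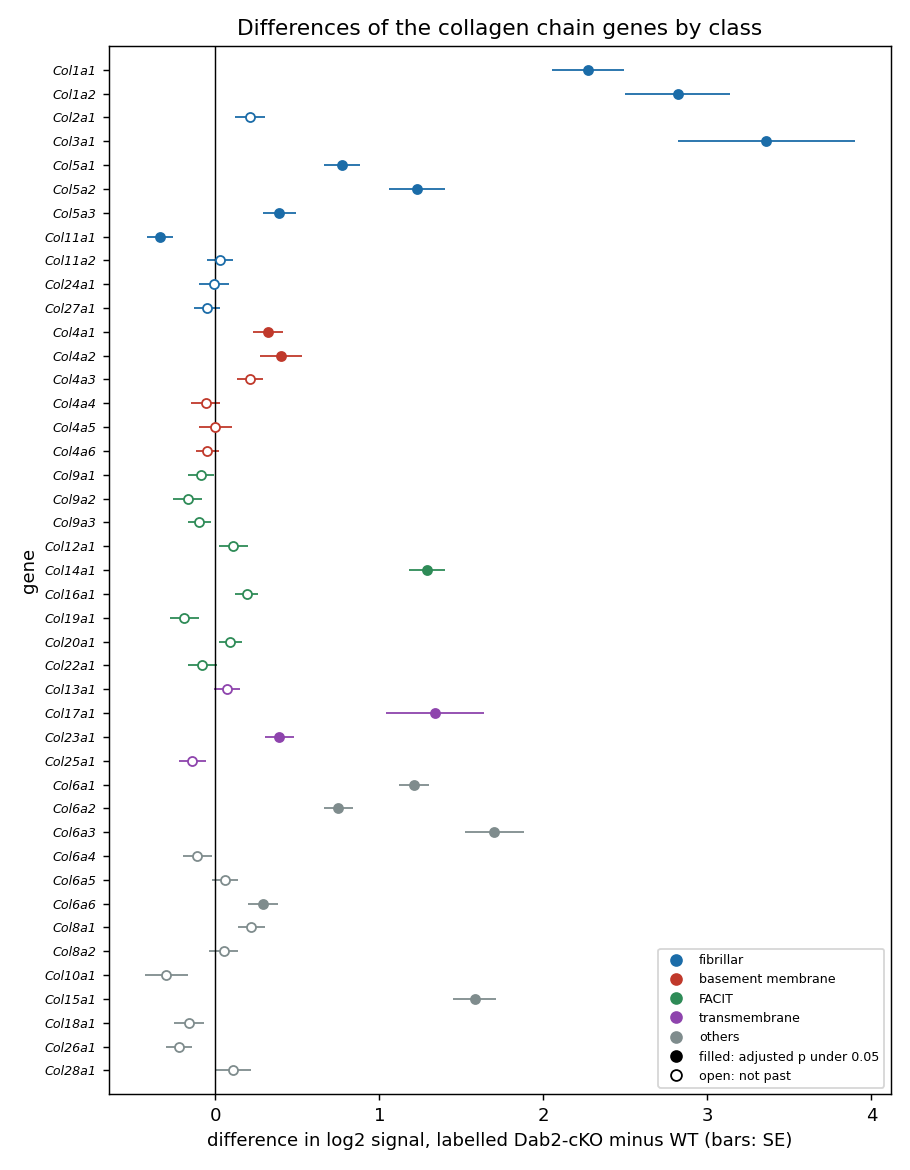
Difference in log2 signal, labelled Dab2-cKO minus WT, for the 43 collagen chain genes (horizontal axis), with SE as bars and genes in class order (vertical axis). Filled points passed the threshold of 0.05 for adjusted p on the deposited scale. The 3 points farthest to the right are Col3a1, Col1a2 and Col1a1.

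All 6 chains of collagen IV, the network former of basement membranes, lay below background in both groups. Col4a1 was 6.12, 6.11 and 6.12 in WT and 6.39, 6.32 and 6.59 in arrays labelled Dab2-cKO (difference 0.32 ± 0.09, adjusted p = 0.0272). Col4a2, its partner in the common network of most tissues, was 6.23, 6.39 and 6.40 against 6.57, 6.64 and 7.01 (difference 0.40 ± 0.13, adjusted p = 0.0437). Neither call was firm. The Col4a1 call was kept only without Dab2-cKO replicate 2, and without any other single array its adjusted p lay between 0.0566 and 0.0712. The Col4a2 call was kept only without Dab2-cKO replicate 1, with adjusted p between 0.0615 and 0.117 otherwise. Centred on the positive control rows, the differences were -0.04 for Col4a1 and 0.04 for Col4a2. The other chains, Col4a3, Col4a4, Col4a5 and Col4a6, did not pass, and of them Col4a3 had the largest difference, 0.21 ± 0.08.

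Among the 9 FACIT genes 1 was higher (18.2% of all genes), namely Col14a1, whose product binds to fibrils through decorin. It was 7.19, 7.45 and 7.37 in WT and 8.66, 8.44 and 8.76 in arrays labelled Dab2-cKO, a 2.44-fold difference with little spread (1.29 ± 0.11, adjusted p = 0.00033). Col12a1, its closest relative in the class, was above background in both groups but was 7.29, 7.49 and 7.49 against 7.58, 7.48 and 7.54. Its groups overlapped and its difference was 0.11 ± 0.09 (adjusted p = 0.334). That difference depended on the scaling, and it was 0.97 centred on the receptor genes and -0.26 centred on the positive control rows. The 7 other FACIT genes were below background in both groups, with differences from -0.19 for Col19a1 to 0.19 for Col16a1, and the median of the class was -0.08.

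Col17a1 was the transmembrane gene above background. It was 6.45, 6.73 and 6.73 in WT and 7.92, 7.40 and 8.62 in arrays labelled Dab2-cKO, at least 1.64-fold higher (difference 1.34 ± 0.30, adjusted p = 0.0108). The groups did not overlap, but the arrays labelled Dab2-cKO spanned a wide range, with an SD of 0.61 against 0.16 in WT. Leaving out single arrays gave differences from 1.03 to 1.64, and the highest adjusted p was 0.0353. Col23a1, which encodes another membrane-anchored chain, was below background at 5.84, 5.78 and 5.83 against 6.06, 6.27 and 6.30 (difference 0.39 ± 0.09, adjusted p = 0.0107). Centred on the positive control rows it did not pass. Col13a1 and Col25a1 had differences of 0.07 and -0.14 and did not pass.

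Of the 13 other chains 5 were higher and 0 lower (18.2% and 32.4% of all genes). The 5 included 4 of the 6 genes of collagen VI, which forms beaded filaments next to basement membranes. The median of these 6 was 0.52. Col6a1 was 6.03, 6.13 and 6.16 in WT and 7.27, 7.22 and 7.46 in arrays labelled Dab2-cKO, at least 1.04-fold higher (difference 1.21 ± 0.09, adjusted p = 0.000169). Col6a3 was 6.71, 6.96 and 6.92 against 8.42, 8.32 and 8.95, at least 2.46-fold higher (difference 1.70 ± 0.18, adjusted p = 0.00059). Col6a2, the third of the classical chains, was below background at 5.97, 6.17 and 6.06 against 6.79, 6.74 and 6.93 (difference 0.75 ± 0.09, adjusted p = 0.000945). The 3 classical chains therefore differed in the same direction, under all 5 scalings.

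The later-described chains of collagen VI lay below background. Col6a6 differed by 0.29 ± 0.09 (adjusted p = 0.0406), a call that was kept only without Dab2-cKO replicate 1, with adjusted p between 0.0675 and 0.107 without any other array. Centred on the positive control rows it differed by -0.07. Col6a4 and Col6a5 had differences of -0.11 and 0.06 and did not pass.

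Collagens XV and XVIII are related proteins of basement membrane zones that carry an endostatin-type end, and their genes differed in their values. Col15a1 was 6.49, 6.77 and 6.77 in WT and 8.32, 8.05 and 8.40 in arrays labelled Dab2-cKO, at least 1.99-fold higher (difference 1.58 ± 0.13, adjusted p = 0.000235). Col18a1 was below background at 6.12, 6.17 and 6.22 against 5.91, 5.97 and 6.14. Its groups overlapped, its difference was -0.16 ± 0.09 (adjusted p = 0.162), and that difference was above 0 under 3 of the 5 scalings. The remaining genes, Col8a1, Col8a2, Col10a1, Col26a1 and Col28a1, were below background and did not pass, with differences from -0.30 for Col10a1 to 0.22 for Col8a1.

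The row that Col7a1 shares with Mir711 was 5.85, 5.76 and 5.75 in WT and 5.91, 5.99 and 6.24 in arrays labelled Dab2-cKO. Its difference was 0.26 ± 0.11 and did not pass when all transcript rows were tested together with limma (adjusted p = 0.0946). The value cannot be given to either gene alone.

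The collagen genes had a shared high array among those labelled Dab2-cKO. Replicate 3 was the highest array of that group for 39 of the 43 genes (90.7%), whereas it was the highest for 26.3% of all genes. The pattern was also present below background, where it held for 30 of 33 collagen genes against 26% of all such genes. The low array was less uniform. Replicate 2 was the lowest for 14 of the 43 genes (32.6%) against 27.1% of all genes. These were the 10 above background in at least 1 group, where the share of all such genes was 38.7%, and 4 of the 33 others, against 22.4%. Replicate 2 was also the lowest for 9 of 11 basal epithelial, 7 of 9 endothelial and 7 of 10 pericyte and smooth muscle markers. It was the lowest for 4 of 9 leukocyte, 3 of 7 melanocyte and 3 of 8 adipocyte and muscle markers. The SD was larger in arrays labelled Dab2-cKO than in WT for 40 of the 43 genes (93%), against 51.6% of all genes.

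Of 13 fibroblast markers other than collagens, 3 were highest on replicate 3 of the arrays labelled Dab2-cKO (23.1%), near the 26.3% of all genes. Replicate 2 was the lowest for 6 of the 13 (46.2%), against 27.1% of all genes and 38.7% of those above background in either group. Pdgfrb, among the 3 highest on replicate 3, was 9.49, 8.54 and 9.70 on the arrays labelled Dab2-cKO. Lum was 12.42, 12.50 and 12.24, Dcn was 17.29, 17.31 and 17.19, and Vim was 12.35, 12.35 and 12.33 on those arrays. Replicate 3 was the highest for 6 of 11 epithelial markers, with Krt14 at 16.57, 16.38 and 16.85. Without Dab2-cKO replicate 3, 13 collagen genes were higher and 1 was lower, against 16.3% and 25.5% of all genes.

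**Figure D3:**
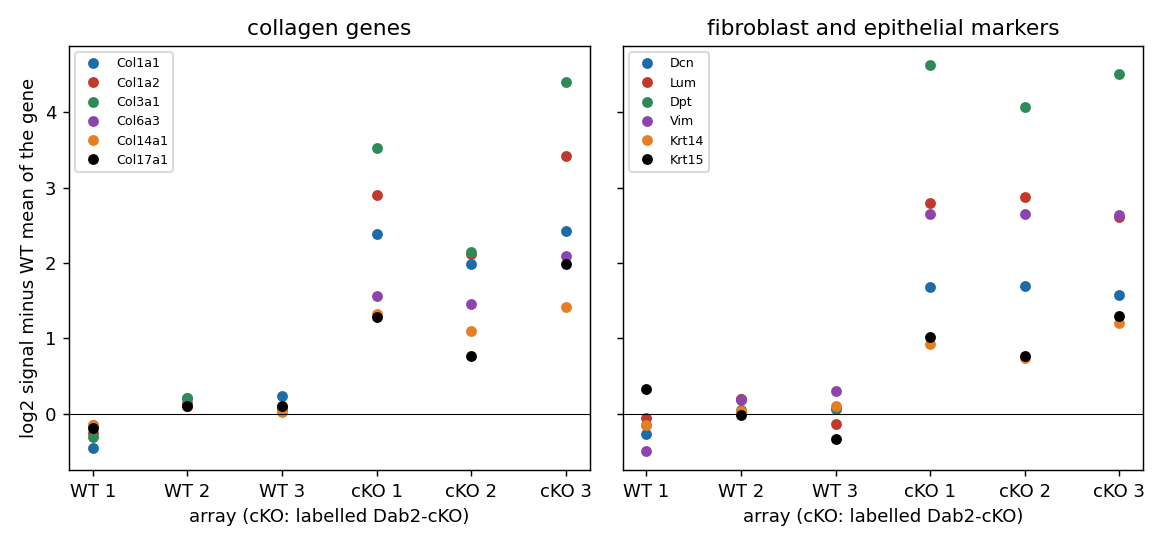
Log2 signal minus the gene's WT mean (vertical axis) on each of the 6 arrays (horizontal axis), for 6 collagen genes on the left and 6 fibroblast or epithelial markers on the right. Points are single arrays. Points of the collagen genes, Krt14 and Krt15 are lowest on replicate 2 and highest on replicate 3 of the arrays labelled Dab2-cKO. Dpt is also lowest on replicate 2, while Dcn, Lum and Vim are at nearly equal heights on those arrays.

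Genes that build and process collagen were examined from 5 lists. Plod3, Loxl2 and Itga1 shared their rows with other genes and were not counted. Fkbp10, Ctage5 and Adamts2 were not among the genes tested under those symbols. The rows of Plod3 and Itga1 differed by 0.71 ± 0.09 and 0.60 ± 0.15, values that cannot be given to 1 gene alone. Of 14 genes for procollagen hydroxylases, glycosyltransferases and their partners, 10 were higher and 1 was lower, with a median difference of 0.80, where 18.2% and 32.4% of all genes were higher and lower and their median was -0.14. The same shares stand behind the counts of the other lists. P3h2, a prolyl 3-hydroxylase, was 6.72, 6.60 and 6.67 in WT and 8.62, 8.71 and 8.52 in arrays labelled Dab2-cKO, at least 2.55-fold higher (adjusted p = 2.37e-05). Plod1, a lysyl hydroxylase, was at least 1.47-fold higher, P3h4, a partner of that enzyme, at least 2.29-fold, and Ppib, a prolyl isomerase of the folding complex, 2.43-fold. Plod2, a lysyl hydroxylase that acts on the ends of the chains, was 7.04 ± 0.17 in WT and 6.40 ± 0.17 in the other group, both below background (difference -0.64 ± 0.13, adjusted p = 0.00701). Centred on array medians it did not pass, and centred on the receptor genes it differed by 0.22, so its direction was not settled. P4hb, the shared subunit of prolyl 4-hydroxylases, was above background in both groups and had a difference of 0.07 ± 0.07.

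All 9 measured genes of procollagen folding and secretion were higher, with a median of 0.75. Creb3l1, a transcription factor of the secretory pathway, was 6.32, 6.56 and 6.74 in WT and 8.68, 8.50 and 8.46 in arrays labelled Dab2-cKO, at least 2.43-fold higher (adjusted p = 9.75e-05). Sec24d, a coat protein of transport vesicles, was at least 1.20-fold higher, Kdelr2, a retrieval receptor, 1.94-fold, and Serpinh1, the collagen chaperone HSP47, at least 1.37-fold. Serpinh1 was 7.91, 7.83 and 7.42 on the arrays labelled Dab2-cKO, lowest on replicate 3, where most collagen genes were highest. Replicate 3 was the highest of those arrays for 1 of the 9 genes of this list, against 26.3% of all genes. It was the highest for 6 of 14 hydroxylases and glycosyltransferases and for 1 of 9 proteinases and enhancers. The same held for 3 of 4 lysyl oxidases and 5 of 9 collagen receptors.

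Of 9 procollagen proteinases and enhancers 5 were higher and 2 lower (18.2% and 32.4% of all genes), with a median of 0.24. Pcolce2 and Pcolce, enhancers of the removal of the C-terminal propeptide, were 5.48-fold and at least 1.81-fold higher, and Bmp1, the proteinase they assist, was 1.44-fold higher. Mep1b, a meprin that can also process procollagen, was 7.43, 7.22 and 6.92 in WT and 5.44, 6.35 and 6.02 in arrays labelled Dab2-cKO, with both means below background (difference -1.25 ± 0.25, adjusted p = 0.00728). Adamts3, an N-terminal propeptidase, had a difference of -0.43 ± 0.07, also below background, but centred on the receptor genes it was higher by 0.43 (adjusted p = 0.0112). The enhancer genes thus had larger differences than the proteinases of the list.

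Lysyl oxidases cross-link collagen outside the cell. Loxl1 had the largest difference of all these lists, at 6.13, 6.25 and 6.56 in WT and 10.09, 9.75 and 9.86 in arrays labelled Dab2-cKO, at least 6.20-fold higher (difference 3.59 ± 0.14, adjusted p = 1.96e-05). Lox was higher below background (difference 1.05 ± 0.10), and Loxl3 and Loxl4 did not pass. Of 9 collagen receptor genes 5 were higher and 1 lower. Ddr2, a receptor tyrosine kinase for fibrillar collagen, was 7.33, 7.54 and 7.60 in WT and 9.54, 9.37 and 9.67 in arrays labelled Dab2-cKO, 4.11-fold higher (adjusted p = 5.96e-05). Itgb1, the beta subunit of collagen-binding integrins, was 1.96-fold higher. Mrc2, an uptake receptor for collagen, was higher below background (difference 0.84 ± 0.09), and Gp6, a platelet receptor, was lower there (difference -0.89 ± 0.12). Ddr1, the discoidin receptor of epithelia, had a difference of 0.07 ± 0.07 and did not pass.

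**Figure D4:**
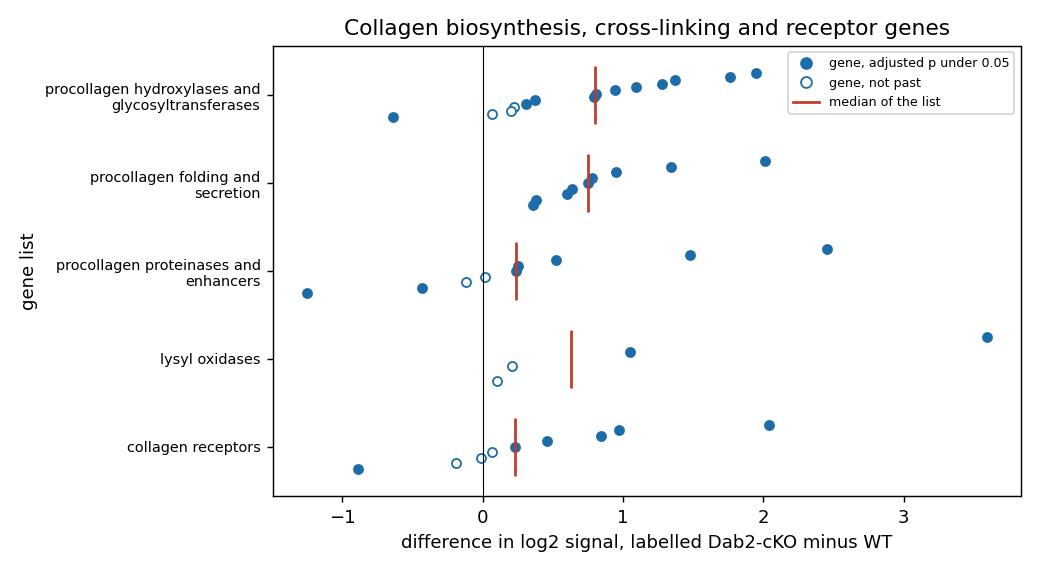
Difference in log2 signal, labelled Dab2-cKO minus WT (horizontal axis), for the genes of 5 lists of collagen biosynthesis, cross-linking and collagen binding (vertical axis). Each point is a gene, filled where it passed the threshold of 0.05 for adjusted p, and red lines are list medians, from 0.23 for receptors to 0.80 for hydroxylases and glycosyltransferases.

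Marker genes of several cell types differed between the same groups, where 18.2% of all genes were higher and 32.4% lower. Of 13 fibroblast markers other than collagens 10 were higher and 1 was lower, with a median difference of 1.65. Their summed signal, in log2 units, ran from 15.80 to 16.19 in WT and from 18.68 to 19.01 in arrays labelled Dab2-cKO. Such a sum adds different probes and follows the strongest of them, and between 96.4% and 97.2% of it came from Dpt and Dcn. All 9 endothelial and all 9 leukocyte markers were higher, with summed signals of 9.13 to 9.37 against 12.13 to 12.51 and of 10.82 to 10.92 against 15.40 to 15.52. Of 10 pericyte and smooth muscle markers 8 were higher and 0 lower, with sums of 11.14 to 11.51 against 12.75 to 12.88. Of 8 adipocyte and muscle markers 7 were higher (16.40 to 17.04 against 19.40 to 19.55), and of 7 melanocyte markers 5 were lower and 1 was higher (14.31 to 14.52 against 10.43 to 10.58). Of 11 basal epithelial markers 6 were higher and 1 was lower, with sums of 17.56 to 17.90 against 18.17 to 18.48. Their part in the collagen differences was not tested.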

How the data were processed

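The values deposited by the authors were log2 signals, 1 for each row and array. Affymetrix Expression Console and RMA stand in the submitters' processing notes without versions. RMA makes probe distributions equal across arrays and so can hide a difference in total RNA between cells. The deposited rows were still not equal between the groups. Their median transcript signals were 5.208 to 5.290 on the WT arrays and 4.888 to 4.985 on those labelled Dab2-cKO. The sources used here name no genome build for the array annotation. Depth is not a property of arrays, and their number limits the precision.

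Of 72688 rows, 6732 control rows were left out. Of 65956 transcript rows, 31292 named 1 gene, and the highest-mean row of each of 30738 genes was tested. Signals ran from 2.25 to 19.93, the ceiling. Arrays correlated at 0.9913 or more within groups and at 0.9364 or less between them.

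The groups were compared with limma 3.58.1 (R 4.3.3, lmFit and eBayes, no covariate), two-sided, with Benjamini-Hochberg adjustment over all genes. The fit was tested on simulated data in which 67, 67 and 66 genes above background were changed by 0.5, 1 and 2 log2 units. It recovered 10.4%, 52.2% and 87.9% of them, and 5 of 105 calls were false. Far fewer genes changed there than passed the threshold here, so these shares need not hold for the arrays. A gene that did not pass may still differ. Lists were described by counts and medians, without set tests. P-values measure only the spread between these arrays.

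The collagen genes, their classes and the other lists were chosen with earlier results of these data known. Values by array were given for collagen genes named in a fixed list or above background, and up to 4 genes per list with the largest differences past the threshold were named. Plod2, P4hb, Adamts3, Loxl3, Loxl4, Ddr1, the marker genes and the other collagen genes given by array were chosen after their values were seen. Genes with patterns like that of Col17a1 were not ranked, since the arrays formed 2 separate groups. Alternatives were 4 other scalings, each array left out in turn, a block for the replicate number, the mean of a gene's rows, genes above background only, all transcript rows, and an intensity trend with robust variances.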

Additional observations from a re-analysis of the deposited data

How the results depend on the processing

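On the deposited scale 16 collagen genes were higher and 1 lower. Centred on array medians 30 were higher and 0 lower (38.3% and 16.2% of all genes), after quantile normalization 30 and 0 (33.6% and 17%), centred on the receptor genes 43 and 0 (76.5% and 7.09%), and centred on the positive control rows 11 were higher and 14 lower (9.34% and 63%). Among genes whose mean over all 6 arrays was above background, 7 of 8 were higher and 0 lower. Of these 8, Col6a3, Col15a1 and Col17a1 had WT means below it and came in through the group where they are high. Nothing is therefore read from the counts above background only, here or for the classes and lists below. With a trend and robust variances 2 were lower. In the order of array medians, quantile and receptor genes, the genes that were higher numbered 10, 10 and 11 for fibrillar chains (0 lower each), 4, 4 and 6 for basement membrane chains, 4, 4 and 9 for FACIT, and 9, 9 and 13 for the other chains, with 4 transmembrane genes higher on the receptor scale. Centred on the positive control rows, 2 fibrillar, 2 basement membrane, 5 FACIT, 1 transmembrane and 4 other chains were lower, and 0 basement membrane and 1 transmembrane chain were higher. Above background only, 3 fibrillar chains were higher and 0 lower, 1 transmembrane and 2 other chains were higher, and no basement membrane chain was left to test. With a trend and robust variances, 1 of the other chains was lower. With all transcript rows tested 1 basement membrane chain was higher.

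Leaving out each array in turn gave 12 to 15 collagen genes higher and 1 lower, with 5 to 6 fibrillar, 0 to 1 basement membrane, 1 FACIT, 2 transmembrane and 4 to 5 other chains higher. Of all genes, 15.2% to 17.1% were higher and 25.1% to 28.9% lower in the same fits. In these fits 12 collagen genes were higher every time, for which no share of all genes was counted. The proteinases and enhancers had 3 to 4 higher.

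For the lists, hydroxylases and glycosyltransferases had 0 lower centred on array medians and on the receptor genes, and 4 higher and 0 lower above background only. Folding and secretion had 5 higher centred on the positive control rows and 5 above background only. Proteinases and enhancers had 1 lower centred on array medians and after quantile normalization, 8 higher and 0 lower on the receptor scale, 2 higher on the positive control scale, and 3 higher and 0 lower above background only. Lysyl oxidases had 4 higher centred on array medians, after quantile normalization and on the receptor scale, and 1 above background only. Receptors had 8 higher and 0 lower on the receptor-gene scale, 3 higher and 3 lower on the positive control scale, and 2 higher and 0 lower above background only.

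The sign was not the same under all 5 scalings for 29 of the 43 collagen genes, all of them below background in both groups except Col12a1. Among the genes whose values are given in full, directions turned for Col4a1 (-0.04), Col12a1 (-0.26) and Col6a6 (-0.07) centred on the positive control rows, for Col11a1 (0.53), Plod2 (0.22) and Adamts3 (0.43) centred on the receptor genes, and for Col18a1 centred on array medians (0.16), after quantile normalization (0.14) and on the receptor genes (0.70). Calls were lost without a change of direction for Col5a3, Col4a2, Col23a1 and Bmp1 centred on the positive control rows, for Mep1b and Gp6 centred on the receptor genes, for Col11a1 and Adamts3 centred on array medians and after quantile normalization, for Plod2 centred on array medians, and for Col4a2 and Col6a6 with all transcript rows tested. The cause of these changes was not tested beyond the scaling itself and the smaller number of genes or arrays.

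The labels do not say whether equal replicate numbers pair the arrays. Deviations from the group means correlated at -0.08, -0.22 and -0.02 for equal numbers and between -0.12 and 0.20 for unequal ones. With 3 arrays in each group such values cannot exclude a pairing. With the replicate block 1 basement membrane chain was higher in place of 2, Col4a1 had adjusted p = 0.0643 and Col6a6 adjusted p = 0.0923 in limma, and 3 proteinases and enhancers were higher in place of 5.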
